A study of Mus musculus with 18 samples.

Results

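The genes of the receptors for interleukin 3 (IL-3), GM-CSF, IL-5 and G-CSF were followed in blood progenitor cells that were moved from stem cell factor into IL-3. They were chosen by symbol, 6 of the 23329 genes in the count files, and comprise Il3ra, Csf2ra, Il5ra, Csf2rb, Csf2rb2 and Csf3r. The cells were FDH cells, immortalised from the fetal liver of BALB/c mouse embryos (E14.5). The labelled strain background is bc-/- bIL-3-/-, that is, without the beta chains encoded by Csf2rb and Csf2rb2, in both lines and all 6 groups. Both lines were transduced with the beta chain βc, 1 line together with wild-type IL3Ra and the other with IL3Ra carrying the amino acid change P248L. Each line was sampled in growth medium with doxycycline and 100 ng/ml mouse stem cell factor (untreated), and again once it had spent 2 or 5 days with IL-3 at 100 ng/ml, with 3 libraries in each group and 18 in all. Doxycycline and stem cell factor are not among the listed components of the IL-3 medium, so a difference from untreated cells covers their removal as well as the addition of IL-3. With 1 line per receptor, line and receptor cannot be told apart. The labels give neither the species of the transduced chains nor the exons deleted in the mice, nor the cultures behind the replicates. The p-values therefore reflect only the spread between these libraries, which may be technical.

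Receptors for IL-3, GM-CSF and IL-5 are built from a cytokine-specific alpha chain, which binds the ligand with low affinity, and a beta chain that signals through JAK2 and STAT5. Il3ra, Csf2ra and Il5ra encode the alpha chains. Csf2rb encodes βc, which all 3 receptors share, and Csf2rb2 encodes βIL-3, a second beta chain that mice use for IL-3 alone. The G-CSF receptor, encoded by Csf3r, needs no beta chain and signals as a pair of identical chains. In the marrow GM-CSF drives the making of neutrophils and macrophages, G-CSF that of neutrophils and IL-5 that of eosinophils. IL-3 supports early progenitors, mast cells and basophils.

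Levels below are CPM, that is, reads of a gene per 1e6 reads in tested genes after TMM scaling, and libraries are named from the lowest to the highest. Changes are log2 fold changes with the standard error of edgeR's quasi-likelihood fit over all 18 libraries. A gene was called changed at a Benjamini-Hochberg adjusted p under 0.05 over the 11942 genes tested, which include all 6 receptor genes. Libraries held between 13.84 and 27.18 (times 1e6) reads in genes. Among them, P248L untreated replicate 1 and P248L day 2 replicate 3 stood farthest from the other libraries of their groups, at a root mean square log2 distance of 0.689 and 0.589, against 0.257 to 0.342 in all wild-type and P248L day 5 libraries, and P248L untreated replicate 3 and day 2 replicate 1 were at 0.553 and 0.516. Called values and differences of the receptor genes that use the first pair are in most cases also given without it. Since these are bulk samples, fewer cells of a type and less RNA per cell cannot be told apart.

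In wild-type cells the 3 genes Csf2ra, Csf2rb and Csf2rb2 rose by day 2 while Il3ra and Csf3r fell, and by day 5 Csf3r had also risen and Il5ra had fallen. In P248L cells Csf2ra was the 1 gene of the 6 that rose by day 2, and Il3ra, Il5ra and Csf3r fell. By day 5 of the P248L line Csf2ra, Csf2rb, Csf2rb2 and Csf3r had risen, and Il3ra and Il5ra had fallen. In wild-type cells at day 2 against untreated, 5 of the 6 genes were called, where 43.9% of all tested genes were called, 22.1% as higher and 21.8% as lower. At wild-type day 5 against untreated 4 rose and 1 fell, against 73.1% of all genes called, 35.7% higher and 37.4% lower. Between day 2 and day 5 of this line 5 rose and 1 fell, against 70.7%, 36% higher and 34.7% lower. In P248L cells 1 rose and 3 fell by day 2, against 40% of all genes called, 18.5% higher and 21.5% lower. By day 5 of this line 4 rose and 2 fell, against 71.1%, 34.8% higher and 36.2% lower, and 5 rose and 1 fell from day 2 to day 5 against 70.2%, 37.1% higher and 33.1% lower. With most genes of these cells changing by day 5, a call by itself sets a receptor gene little apart, and the direction and size are what follow. At day 5 the median log2 change of the 6 genes was 1.54 in wild-type and 1.78 in P248L cells, against -0.05 and -0.02 over all tested genes. For 26 other cytokine receptor genes tested it was 1.75 and 1.504, so such a rise was not particular to the 6.

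**Figure D1:**
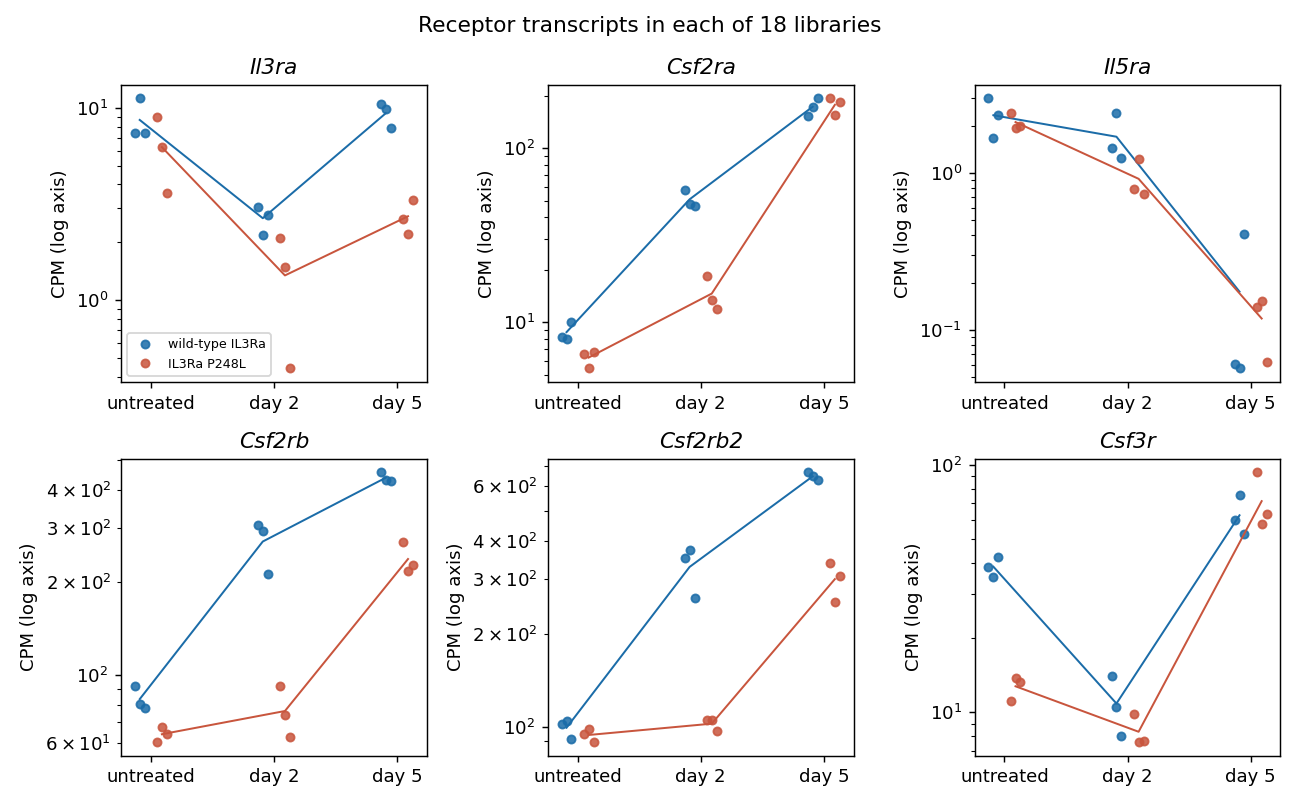
CPM (log axis) of each receptor gene in every library, by time in IL-3, with blue points for the wild-type IL3Ra line, red points for the P248L line and lines through the group means of 3 libraries. At day 2 the P248L libraries of Csf2ra, Csf2rb and Csf2rb2 all lie below the wild-type ones, at day 5 those of Csf2ra overlap with them, and Il3ra stays lower in P248L.

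The IL-3 alpha chain gene Il3ra (chr14:14346275-14356011, plus strand, GRCm38) was low in all groups and lowest at day 2. In wild-type cells its level was 7.36, 7.41 and 11.2 CPM in untreated cells, then 2.18, 2.77 and 3.05 after 2 days and 7.82, 9.84 and 10.5 after 5. All day 2 libraries were below all others of this line, while untreated and day 5 libraries overlapped. The fall by day 2 was 3.23-fold (log2 -1.69 ± 0.35, edgeR adjusted p = 0.00068), the rise from day 2 to day 5 was 3.51-fold (log2 1.81 ± 0.35, adjusted p = 0.00017), and day 5 against untreated did not pass (log2 0.12 ± 0.32, 95% interval -0.59 to 0.82, adjusted p = 0.75).

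The P248L line gave 3.59, 6.23 and 8.93 CPM of Il3ra untreated, then 0.441, 1.48 and 2.11 at day 2, and 2.22, 2.64 and 3.33 at day 5. Here the day 5 libraries remained below all untreated ones, and above all day 2 ones. The fall was 4.44-fold by day 2 (log2 -2.15 ± 0.38, adjusted p = 0.00024) and 2.31-fold by day 5 (log2 -1.21 ± 0.35, adjusted p = 0.0055). Without the pair of libraries that stood apart these changes of Il3ra were -1.46 and -0.88 (adjusted p = 0.0017 and 0.0082). The rise from day 2 to day 5 (log2 0.94 ± 0.40, adjusted p = 0.044) was lost in 20 of 31 alternative analyses, with adjusted p values between 0.014 and 0.17, and was 0.58 (adjusted p = 0.11) without that pair. At day 5 all P248L libraries were below all wild-type libraries, by 3.43-fold (log2 -1.78 ± 0.35, adjusted p = 0.00048). Untreated libraries of the lines overlapped (log2 -0.45 ± 0.32, adjusted p = 0.31), but without the pair of libraries Il3ra was called lower in P248L (-0.78, adjusted p = 0.036). At day 2 the libraries of the lines did not overlap but the difference missed the threshold (log2 -0.91 ± 0.39, adjusted p = 0.083). This day 2 difference passed in 1 of 31 alternative analyses, the one without P248L day 2 replicate 1 (log2 -1.41, adjusted p = 0.024). In order of level, the groups were P248L day 2, wild-type day 2, P248L day 5, P248L untreated, wild-type untreated and wild-type day 5. Among these neighbours the step from P248L day 5 to P248L untreated passed the test. Whether any of these reads come from the transduced IL3Ra cannot be read from gene counts.

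Csf2ra encodes the alpha chain that binds GM-CSF and lies on chr19:61223957-61228429, minus strand. Against untreated cells this gene had the largest rise of the 6 in both lines, at both days. Wild-type libraries held 8.01, 8.25 and 10.1 CPM untreated, then 46.8, 48 and 57.8 at day 2 and 153, 173 and 193 at day 5. P248L libraries held 5.44, 6.61 and 6.79, then 11.9, 13.5 and 18.5, then 156, 183 and 193 CPM. Within each line the 3 times did not overlap. By day 2 Csf2ra had risen 5.79-fold in wild-type (log2 2.53 ± 0.17, adjusted p = 1.4e-09) and 2.35-fold in P248L cells (log2 1.23 ± 0.17, adjusted p = 2.6e-05). By day 5 the rises were 19.7-fold (log2 4.30 ± 0.18, adjusted p = 5.1e-13) and 28.4-fold (log2 4.83 ± 0.19, adjusted p = 2.8e-13). The P248L values of Csf2ra without the pair of libraries were 1.42 at day 2 and 4.88 at day 5 (adjusted p = 2.5e-05 and 1.1e-12).

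Between day 2 and day 5 Csf2ra rose 3.4-fold in wild-type and 12.1-fold in P248L cells (log2 1.76 ± 0.16 and 3.59 ± 0.18, edgeR adjusted p = 2.2e-08 and 6.7e-12). The lines differed 3.46-fold at day 2, with all P248L libraries lower (log2 -1.79 ± 0.17, adjusted p = 1.4e-07), and not at day 5, where libraries overlapped (log2 0.04 ± 0.16, 95% interval -0.30 to 0.38, adjusted p = 0.87). Untreated P248L libraries were all below the wild-type ones by 1.41-fold, just outside the threshold (log2 -0.49 ± 0.17, adjusted p = 0.0504), and this difference passed in 7 of 31 alternative analyses, among them the one without the pair of libraries (log2 -0.55, adjusted p = 0.0455). Without that pair the day 2 difference was -1.66 (adjusted p = 4.6e-07). In order, P248L untreated, wild-type untreated, P248L day 2, wild-type day 2, wild-type day 5 and P248L day 5 followed each other, and all steps passed except the lowest and the highest.

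Il5ra, the gene of the IL-5 alpha chain (chr6:106710357-106749037, minus strand), moved the other way and was the least abundant of the 6. Wild-type untreated libraries held 1.66, 2.35 and 2.98 CPM and day 2 libraries 1.25, 1.44 and 2.41, which overlap. At day 5 they held 0.0569, 0.0609 and 0.408 CPM, from 1, 1 and 6 reads. In P248L cells the values were 1.93, 1.99 and 2.4 CPM untreated, then 0.735, 0.786 and 1.23 at day 2 and 0.0628, 0.139 and 0.153 at day 5, the last from 1, 3 and 2 reads, and the times did not overlap. By day 5 Il5ra had fallen in wild-type (log2 -3.76 ± 0.49, adjusted p = 1.7e-06) and in P248L cells (log2 -4.08 ± 0.52, adjusted p = 1.5e-06). Summed over the 3 libraries of a group, 156 reads became 8 in wild-type and 154 became 6 in P248L cells. After scaling these sums were 13.9-fold lower (95% counting interval 6.86 to 32.7) and 17.8-fold lower (8.01 to 49.4), and the intervals cover counting error only.

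The wild-type day 5 library with 6 reads weighs on the size of this fall of Il5ra, which was -5.16 on the log2 scale without it (wild-type day 5 replicate 3). By day 2 the change was called in P248L (log2 -1.20 ± 0.36, adjusted p = 0.013) and not in wild-type cells (log2 -0.46 ± 0.33, 95% interval -1.17 to 0.25, adjusted p = 0.28), and the difference of these responses did not pass (adjusted p = 0.36). The P248L call was lost without the pair of libraries apart (log2 -0.99, adjusted p = 0.076) and without P248L day 2 replicate 1 (adjusted p = 0.052). Il5ra did not pass between the lines at any time, with adjusted p = 0.79 untreated, 0.074 at day 2, where the libraries did not overlap, and 0.69 at day 5. Its day 2 difference passed in 1 of 30 alternative analyses, the one without wild-type day 5 replicate 3 (log2 -0.88, adjusted p = 0.0395). Markers of eosinophils, cells known for the IL-5 receptor, were close to absent where Il5ra was highest. Of 6 such markers 5 were in the files, and their summed level was 0.0995 to 0.232 CPM in wild-type untreated, 4.23 to 6.2 at day 2 and 14 to 24.8 at day 5, with Epx and Ear6 at 0 in wild-type untreated. In P248L cells the sums were 0.492 to 1.24, 0.0735 to 0.496 and 9.16 to 16.8 CPM, with Epx at 0 untreated and Ear6 at 0 at day 2. Most of the day 5 sums was Prg2, at 16.2 ± 4.55 CPM in wild-type and 7.88 ± 1.86 CPM in P248L cells. Ccr3 had group means of at most 0.0983 CPM. Prg3 in P248L cells was at 0.607 ± 0.354, 0.0864 ± 0.0332 and 0.653 ± 0.354 CPM, so it was lower at day 2, as Il5ra was.

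The beta chain genes Csf2rb (chr15:78325752-78353847, plus strand) and Csf2rb2 (chr15:78282507-78305721, minus strand) are neighbours that point away from each other, with starts 20031 bases apart in GENCODE M21. Their coding sequences are 95.2% identical over 2628 aligned bases, so the share of reads that each can claim matters for what the counts mean. Below is first a coding stretch of 90 bases that is the same in both, at coding bases 928 to 1017 of each. A read that lies wholly within it cannot by itself be assigned to either gene. After it comes the 90-base stretch with the most differences, 16, which are in capitals. Positions are chr15:78341658-78341747 and chr15:78338897-78338986 for Csf2rb, and chr15:78291563-78291652 and chr15:78294345-78294434 for Csf2rb2, on GRCm38 from GENCODE transcripts and written along each gene's own strand.
Csf2rb and Csf2rb2, shared: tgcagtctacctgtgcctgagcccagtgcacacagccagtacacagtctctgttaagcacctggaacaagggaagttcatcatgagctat
Csf2rb, most different: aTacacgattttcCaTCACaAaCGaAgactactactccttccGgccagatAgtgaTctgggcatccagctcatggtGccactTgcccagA
Csf2rb2, most different: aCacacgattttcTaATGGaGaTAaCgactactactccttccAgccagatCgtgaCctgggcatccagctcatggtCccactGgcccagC
Over the whole transcripts, 18.4% of the 50-base words of Csf2rb also occur in Csf2rb2, 6.96% of its 100-base words and 3.47% of its 150-base words, and for Csf2rb2 these shares are 19%, 7.2% and 3.59%. The files set reads with several places in the genome apart from gene counts, so reads placed equally well in both genes are not counted for either.

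Csf2rb rose early in the wild-type line and late in the P248L line. Wild-type libraries held 77.8, 80.2 and 92.1 CPM untreated, then 213, 293 and 308 at day 2 and 427, 429.5 and 456 at day 5. Those of P248L held 60.4, 64.2 and 67.7, then 62.7, 74 and 92.1, then 217, 227 and 270.3 CPM. In wild-type cells no time overlapped with another, while in P248L cells untreated and day 2 libraries overlapped and day 5 was above both. By day 2 Csf2rb had risen 3.26-fold in wild-type cells (log2 1.70 ± 0.16, adjusted p = 8.7e-08), while P248L cells showed no called change (log2 0.25 ± 0.15, 95% interval -0.08 to 0.59, adjusted p = 0.2, and 0.34 with adjusted p = 0.11 without the pair of libraries apart). By day 5 it had risen 5.25-fold in wild-type (log2 2.39 ± 0.16, adjusted p = 2.5e-10) and 3.72-fold in P248L cells (log2 1.89 ± 0.16, adjusted p = 6.6e-09).

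Csf2rb2 followed the same course at a higher level. In wild-type cells it stood at 91.4, 102 and 104 CPM untreated, then 261, 352 and 374 at day 2 and 627, 646 and 667 at day 5. P248L libraries held 89, 94.7 and 98, then 96.5, 105 and 105, then 254, 307 and 339.5 CPM. Untreated libraries of the lines overlapped, whereas P248L libraries were below the wild-type ones at both later times. Wild-type cells showed a 3.32-fold rise of Csf2rb2 by day 2 (log2 1.73 ± 0.14, adjusted p = 1.2e-08) and a 6.53-fold rise by day 5 (log2 2.71 ± 0.14, adjusted p = 9e-12). In P248L cells the change was 0.12 ± 0.13 at day 2 (95% interval -0.17 to 0.41, adjusted p = 0.5, and 0.17 with adjusted p = 0.42 without the pair of libraries apart) and a 3.2-fold rise at day 5 (log2 1.68 ± 0.14, adjusted p = 5.2e-09).

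Compared between the lines, P248L cells held less of both beta chain transcripts at day 2 and at day 5. Csf2rb was 3.55-fold lower at day 2 (log2 -1.83 ± 0.16, adjusted p = 4.8e-08) and 1.84-fold lower at day 5 (log2 -0.88 ± 0.15, adjusted p = 0.00013). Csf2rb2 was 3.22-fold lower at day 2 (log2 -1.69 ± 0.14, adjusted p = 2.3e-08) and 2.15-fold lower at day 5 (log2 -1.11 ± 0.13, adjusted p = 2.6e-06). Without the pair of libraries the day 2 differences of Csf2rb and Csf2rb2 were -1.70 and -1.65 (adjusted p = 1.5e-07 and 1.3e-07), and the P248L day 5 changes 1.85 and 1.68. Untreated, neither difference passed (adjusted p = 0.082 and 0.7). The day 5 level of the P248L line was that of the wild-type line at day 2 within the spread. Csf2rb was then at 238 ± 28.4 against 271 ± 50.7 CPM (SD, n = 3 each, edgeR adjusted p = 0.28, 95% interval of the log2 difference -0.52 to 0.14), and Csf2rb2 at 300.0 ± 43.2 against 329 ± 59.8 CPM (adjusted p = 0.39, -0.42 to 0.16). With the reads of both genes summed as 1 gene, which leaves out the question of how they are split, the day 2 change was 1.73 ± 0.14 in wild-type (adjusted p = 2.5e-08) and 0.20 ± 0.14 in P248L cells (adjusted p = 0.28), and the day 5 changes were 2.56 ± 0.15 and 1.72 ± 0.14 (adjusted p = 3.5e-11 and 6.9e-09).

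The split of reads within the pair moved little beside its level. Csf2rb took between 38.9 and 47.5% of the reads of both genes in every library. The wild-type means were 45.7 ± 1.93% untreated, 45.2 ± 1.36% at day 2 and 40.4 ± 0.367% at day 5 (SD, n = 3). P248L means were 40.6 ± 1.52%, 42.5 ± 3.81% and 44.3 ± 1.74%. Untreated the P248L libraries (38.9 to 41.9%) were below the wild-type ones (43.6 to 47.5%), and at day 5 they were above them (42.6 to 46% against 39.9 to 40.6%). In cells labelled as lacking both chains these counts, at least 853 reads of Csf2rb and 1313 of Csf2rb2 in each library, check no genotype, since neither the deleted exons nor the origin of the transduced chain is given.

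**Figure D2:**
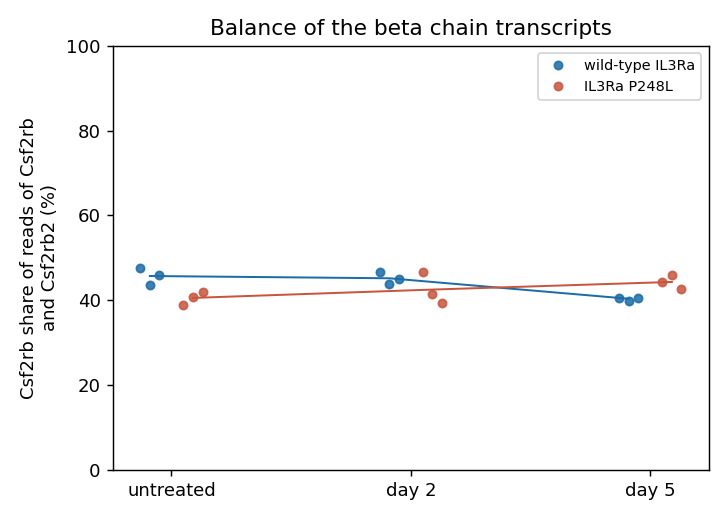
Share (%) of Csf2rb among the reads counted for Csf2rb and Csf2rb2 in each library, by time in IL-3, with lines through group means of 3 libraries, blue for wild-type and red for P248L. All 18 points lie between 38.9 and 47.5%.

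Csf3r, the gene of the G-CSF receptor (chr4:126024550-126044440, plus strand), fell and then rose in both lines, from different starting levels. Untreated wild-type libraries held 35.3, 38.7 and 42.3 CPM and untreated P248L libraries 11.1, 13.3 and 13.8 CPM. At day 2 the values were 8.04, 10.5 and 14 CPM in wild-type and 7.57, 7.65 and 9.8 CPM in P248L cells, which overlap. Day 5 libraries held 52.6, 59.8 and 75.2 CPM in wild-type and 57.6, 63 and 93.4 CPM in P248L cells, and overlap as well. The untreated difference was 3.05-fold (log2 -1.61 ± 0.21, adjusted p = 2.5e-05), the only one of the 6 genes past the threshold between untreated lines, where 21.7% of all tested genes passed, 10.3% as higher and 11.3% as lower in P248L. This Csf3r difference was -1.51 without the pair of libraries (adjusted p = 0.00015), and Il3ra and Csf2ra passed as well. Wild-type cells showed a 3.56-fold fall of Csf3r by day 2 (log2 -1.83 ± 0.22, adjusted p = 2e-06) and a level 1.61-fold above the untreated one at day 5 (log2 0.69 ± 0.20, adjusted p = 0.0058). This day 5 call was lost with no scaling beyond library size (log2 0.25, adjusted p = 0.3).

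For P248L cells the fall of Csf3r by day 2 was 1.52-fold (log2 -0.60 ± 0.22, adjusted p = 0.036). It was lost in 13 of 32 alternative analyses, among them the one without the pair of libraries apart (log2 -0.63, adjusted p = 0.070) and a fit of these 2 groups alone with the replicate number as a block (log2 -0.61, adjusted p = 0.073). By day 5 Csf3r had risen 5.61-fold over untreated P248L cells (log2 2.49 ± 0.22, adjusted p = 1.4e-08, and 2.40 without the pair of libraries). The difference between lines was then 0.19 ± 0.20 (95% interval -0.25 to 0.63, adjusted p = 0.48). From day 2 to day 5 the rise was 5.75-fold in wild-type and 8.52-fold in P248L cells (log2 2.52 ± 0.22 and 3.09 ± 0.23, adjusted p = 1.1e-08 and 1.2e-09). Of the steps in its order of levels, those from P248L untreated to wild-type untreated and from there to wild-type day 5 passed, and the others did not.

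The difference of the day 2 responses, P248L minus wild-type, was called for 4 of the 6 genes, 1 positive and 3 negative, where 9.55% of all tested genes were called, 3.05% positive and 6.5% negative. Csf2ra (log2 -1.30 ± 0.24, adjusted p = 0.0014), Csf2rb (log2 -1.45 ± 0.22, adjusted p = 0.00022) and Csf2rb2 (log2 -1.61 ± 0.19, adjusted p = 2.1e-05) responded less in P248L cells. Csf3r fell less in them (log2 1.23 ± 0.30, adjusted p = 0.014). Without the pair of libraries apart these 4 differences were -1.11, -1.37, -1.57 and 1.20, with adjusted p values of 0.0055, 0.00028, 4.9e-05 and 0.027. For Il3ra and Il5ra the differences were -0.46 ± 0.51 (95% interval -1.57 to 0.65) and -0.75 ± 0.49 (-1.81 to 0.31), neither of which passed (adjusted p = 0.61 and 0.36).

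At day 5 the difference of responses was called for 3 of the 6 genes, 1 positive and 2 negative, against 26.9% of all tested genes, 14.7% positive and 12.2% negative. Csf2rb2 rose less in P248L cells (log2 -1.03 ± 0.19, adjusted p = 0.00054). Csf3r rose more (log2 1.80 ± 0.29, adjusted p = 0.00019), its untreated level in this line having been lower and its day 5 level not different. The difference for Il3ra (log2 -1.32 ± 0.48, adjusted p = 0.0489) lay at the threshold and was lost in 19 of 31 alternative analyses, where adjusted p reached 0.12. Without the pair of libraries the differences of Csf2rb2, Csf3r and Il3ra were -1.02, 1.71 and -0.99 (adjusted p = 0.00038, 0.00029 and 0.036). Csf2rb (log2 -0.50 ± 0.21, adjusted p = 0.097), Csf2ra (0.53 ± 0.23, adjusted p = 0.1) and Il5ra (-0.33 ± 0.86, adjusted p = 0.83) did not pass. The difference for Csf2rb did pass in 5 of 31 alternative analyses, namely DESeq2 (-0.54, adjusted p = 0.0476), only the groups compared (-0.56, adjusted p = 0.0165), the replicate block, the beta chain genes summed (-0.84, adjusted p = 0.0043) and without the pair of libraries (-0.54, adjusted p = 0.0404). Direct comparison of the lines called 3 of the 6 genes at day 2, all lower in P248L, against 35.8% of all genes called, 15.5% higher and 20.3% lower. At day 5 it called 3 as well, again all lower, against 45.5%, 22.8% higher and 22.7% lower.

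**Figure D3:**
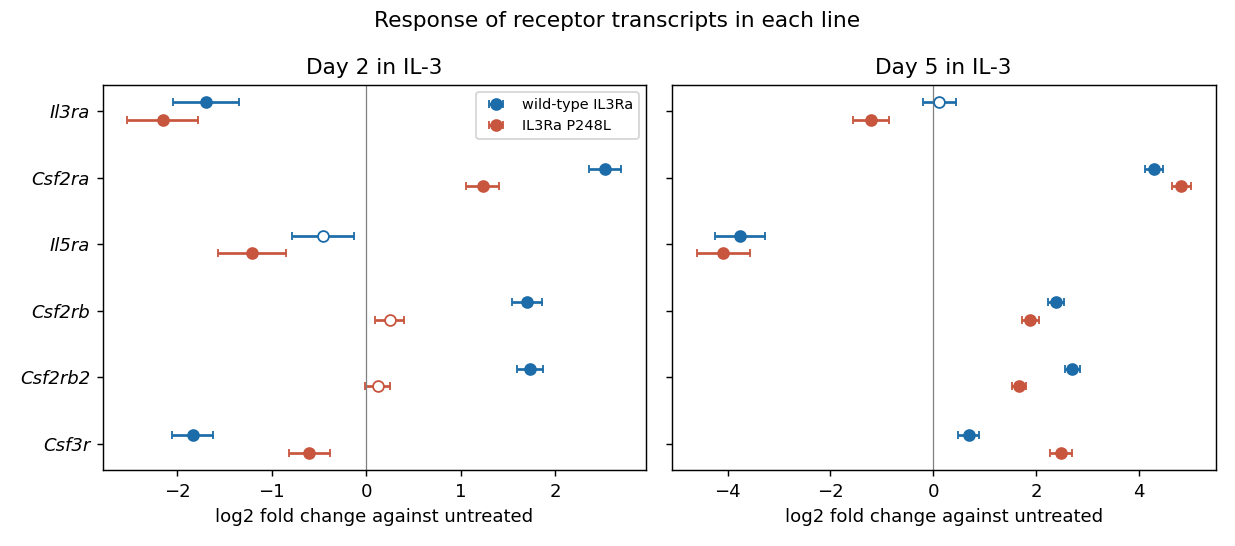
Log2 fold change against untreated of each receptor gene in the wild-type IL3Ra (blue) and P248L (red) lines, at day 2 and at day 5, with bars of 1 standard error from edgeR, filled points for adjusted p under 0.05 and open points otherwise. At day 2 the red points of Csf2rb and Csf2rb2 lie near 0 (0.25 and 0.12) and the blue ones at 1.70 and 1.73, and at day 5 all 4 lie between 1.68 and 2.71.

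Levels of different genes were compared per length, as CPM per kilobase of annotated exon (RPKM). In untreated wild-type cells Csf2rb2 was at 20.9 ± 1.4, Csf2rb at 11.5 ± 1.06, Csf3r at 10.7 ± 0.974, Csf2ra at 3.06 ± 0.401, Il3ra at 2.92 ± 0.738 and Il5ra at 0.653 ± 0.185 RPKM (SD, n = 3). By day 5 of the same line Csf2ra stood at 60.2 ± 6.9 RPKM and was as abundant per length as Csf2rb at 60.1 ± 2.16, below Csf2rb2 at 136 ± 4.19 and above Csf3r at 17.3 ± 3.2 and Il3ra at 3.17 ± 0.475. In P248L cells at day 5 Csf2ra (61.8 ± 6.72 RPKM) was above Csf2rb (32.7 ± 3.91) and close to Csf2rb2 (63.3 ± 9.12). These orders rest on the length used, and with the longest transcript in place of all exons Csf2rb at wild-type day 5 was at 89.3 and Csf2ra at 76 RPKM.

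Since an alpha chain needs a beta chain to signal, each alpha chain transcript was also read as a percent of Csf2rb, per length, in each library. Il3ra was at 19.7 to 34.2% of Csf2rb in untreated wild-type and 13.7 to 36.3% in untreated P248L libraries. In IL-3 it was at 1.82 to 3.18% and 1.73 to 5.61% at day 2, and at 4.49 to 5.67% and 2.4 to 3.59% at day 5, with no overlap of the lines at day 5. Csf2ra went the other way, with untreated libraries at 22.7 to 32.9% in wild-type and 20.4 to 27.7% in P248L cells. At day 2 the lines were alike in their means, 48.2 ± 7.03% in wild-type and 48.4 ± 2.35% in P248L cells, although both transcripts were lower in P248L. By day 5 Csf2ra stood at 101 ± 14.6% of Csf2rb in wild-type (85.3 to 114%) and at 189 ± 13% in P248L cells (181 to 204%). The lines did not overlap. These percentages rest on the length used, and with the longest transcript the 2 means were 85.4% and 161%. Il5ra fell from 5.65 ± 1.26% to 0.0829 ± 0.0966% in wild-type and from 6.74 ± 1.21% to 0.102 ± 0.0441% in P248L cells between untreated and day 5. These percentages are descriptions of transcripts with no test, and the transduced chains may or may not be part of them.

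**Figure D4:**
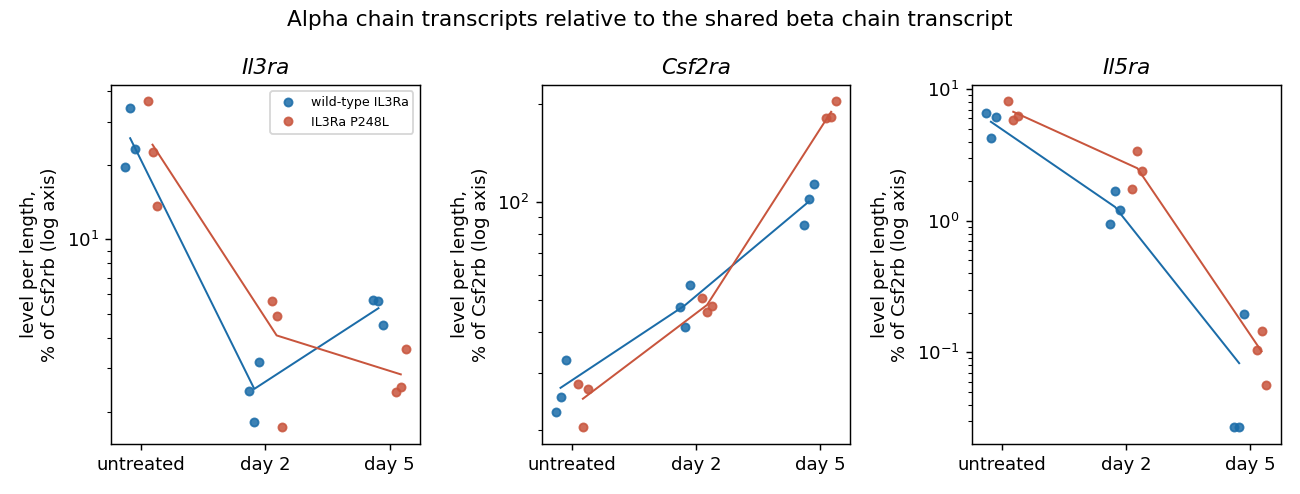
Level per length of each alpha chain transcript as a percent of that of Csf2rb (log axis) in each library, by time in IL-3, with lines through group means of 3 libraries, blue for wild-type and red for P248L. Csf2ra climbs to 101% in wild-type and 189% in P248L cells at day 5 (85.4% and 161% with the longest transcript as length). Il3ra and Il5ra end below their untreated percentages.

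Because the beta chain genes moved together and Il5ra moved against them, the promoter letters of the receptor genes were read from RefSeq on GRCm38.p6, which held 5 of the 6, all but Csf2rb. The 250 bases before each start were searched on both strands for a STAT5 motif (TTCNNNGAA), the PU.1 motif GAGGAA, the GATA motif AGATAA and the C/EBP motif TTGCNNAA. Below are the 100 bases before the start of Csf2rb2 (chr15:78305722-78305821, minus strand) and of Il5ra (chr6:106749038-106749137, minus strand), then 30 bases around the matches of Csf2ra (chr19:61228419-61228448, minus strand), Csf3r (chr4:126024561-126024590, plus strand) and Il3ra (chr14:14346350-14346379, plus strand), with matches in capitals. The last 3 pieces lie inside the annotated span of their gene, since other transcripts start farther out.
Csf2rb2: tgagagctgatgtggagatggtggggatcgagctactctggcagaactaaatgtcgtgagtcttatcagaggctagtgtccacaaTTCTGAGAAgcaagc
Il5ra: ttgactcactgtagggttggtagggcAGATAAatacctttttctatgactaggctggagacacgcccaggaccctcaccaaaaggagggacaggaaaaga
Csf2ra: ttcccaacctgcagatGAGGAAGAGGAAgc
Csf3r: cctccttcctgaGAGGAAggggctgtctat
Il3ra: atctcaggaagTTGCTCAAtctcgggacca
The STAT5 match of Csf2rb2 begins 15 bases before its start, and 7.02% of all 32851 promoters in the table hold such a match in 250 bases. PU.1 matches begin 14 and 8 bases before the start of Csf2ra, 1 directly after the other, 86 bases before that of Csf3r and 167 before that of Csf2rb2 (23.3% of all promoters have 1 or more). The GATA match of Il5ra begins 74 bases before its start (9.99% of promoters) and the C/EBP match of Il3ra 134 bases before its start (9.56%). STAT5 is the factor that the beta chains activate, PU.1 and C/EBP factors are known for myeloid genes and GATA factors for eosinophil, mast cell and basophil genes. A match is a description of letters and no evidence of binding.

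**Figure D5:**
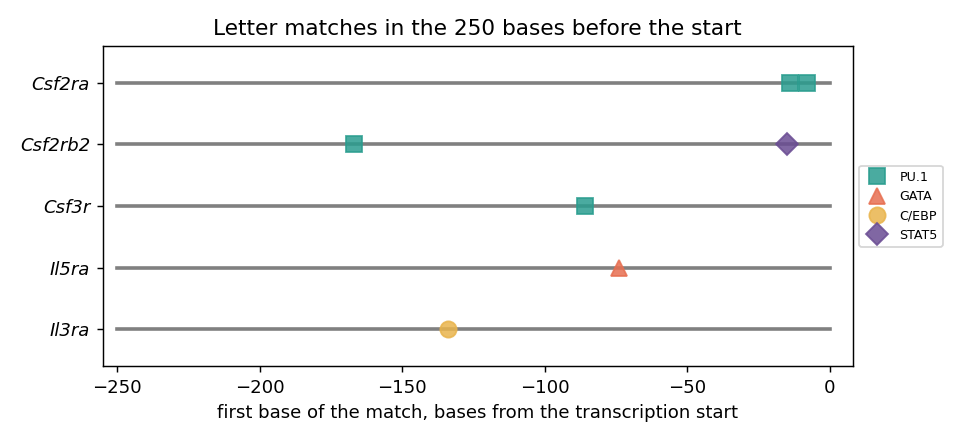
Positions of motif matches in the 250 bases before the start of each receptor gene in the RefSeq table, in bases from the start; grey lines are the sequence searched and symbols the first base of each match. Csf2ra has a pair of adjacent PU.1 matches at 14 and 8 bases, Csf2rb2 1 STAT5 match at 15 and 1 PU.1 match at 167, and the other 3 genes 1 match each.

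Factors of these motifs and others known for these genes were read in the same fit, 7 of a list of 8, with Spi1 not analysed here. By day 2 of wild-type cells 3 of the 7 rose and 1 fell, where 43.9% of all genes were called. Cebpe, a C/EBP factor of late granulocyte stages, rose from 10.9 ± 1.44 to 207 ± 14.1 CPM (SD, n = 3), and Cebpa, a C/EBP factor of progenitors, fell from 92.6 ± 11.9 to 23.1 ± 0.806 CPM (edgeR adjusted p = 5.3e-10 and 4.6e-07). P248L cells had 3 of 7 higher and 2 lower at day 2 (40% of all genes called), and 3 higher and 1 lower without the pair of libraries, with Cebpe from 7.87 ± 3.36 to 69.7 ± 23.9 CPM and Runx1, a factor of blood progenitors, from 29.9 ± 1.67 to 65.5 ± 6.02 CPM (adjusted p = 5.3e-08 and 2.7e-06). Gata2, a factor of progenitors and mast cells, stood at 51.4 ± 10.2 CPM in wild-type and 8.87 ± 0.772 CPM in P248L cells at day 5, after 78.3 ± 8 and 71.2 ± 11.4 CPM untreated, and its fall was larger in P248L cells (difference of responses -2.40 ± 0.26, adjusted p = 2.7e-06, and -2.30 without the pair of libraries).

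None of the 4 ligand genes was expressed enough to be tested. Summed over all 18 libraries, Il3 had 5 reads, Csf2 29, Il5 5 and Csf3 3, and of the 29 reads of Csf2, the gene of GM-CSF, 23 lay in the wild-type day 5 libraries (5 to 13 reads each) and 2 in those of P248L day 5. Of 18 genes of proximal signalling 4 rose and 4 fell by day 2 in each line, with a median log2 change of -0.06 in wild-type and 0.02 in P248L cells against 0.00 and -0.01 over all genes. These 8 of 18 called stand beside 43.9% and 40% of all genes, and without the pair of libraries 3 rose and 4 fell in P248L cells. At day 5, 11 rose and 2 fell in wild-type and 13 rose and 2 fell in P248L cells, with medians of 0.47 and 0.86 against -0.05 and -0.02, and beside 73.1% and 71.1% of all genes called. The share of this list called was thus near that of all genes at day 2 in both lines and at day 5 in wild-type cells. At day 5, however, more of its genes rose than fell in both lines. Of all genes 35.7% were higher and 37.4% lower in wild-type, and 34.8% and 36.2% in P248L cells. Jak2, the kinase bound to the beta chains, rose from 43.7 ± 13.7 to 128 ± 44.1 CPM by day 2 and to 337 ± 12.9 CPM by day 5 in P248L cells, and reached 155 ± 8.42 CPM from 82.5 ± 8.73 in wild-type cells, a difference of day 5 responses of 2.03 ± 0.31 (adjusted p = 9.6e-05, and 1.80 without the pair of libraries). Its P248L change by day 2 was 1.55 ± 0.22 (adjusted p = 3.3e-05), and 1.01 without that pair.

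Feedback inhibitors that STAT proteins induce responded in both lines by day 2. Of the 4 genes listed Cish, Socs1 and Socs3 rose in each line. Of all tested genes 22.1% were called higher in wild-type and 18.5% in P248L cells. The median log2 change over all 4 was 2.83 in wild-type and 1.76 in P248L cells, while Socs2 did not pass (-0.28 and -0.19, adjusted p = 0.29 and 0.49). Cish rose from 6.73 ± 0.478 to 155 ± 14.6 CPM in wild-type (log2 4.52 ± 0.21, adjusted p = 1.3e-11) and from 7.32 ± 2.51 to 120 ± 28.8 CPM in P248L cells (log2 4.02 ± 0.21, adjusted p = 2.5e-10). The difference of these responses was -0.51 ± 0.27 and did not pass (adjusted p = 0.26). In a direct comparison of the lines at day 2, Socs1 was called lower in P248L cells. It stood at 1.96 ± 1.22 against 6.82 ± 0.609 CPM, where 20.3% of all genes were called lower. The P248L change of Cish by day 2 was 4.43 without the pair of libraries, and the median of the 4 genes 2.47.

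Of 30 other cytokine receptor genes 26 were tested. In wild-type cells 11 rose and 11 fell by day 2 and 19 rose and 3 fell by day 5, with medians of 0.21 and 1.75. Over all tested genes 43.9% and 73.1% were called, 35.7% as higher at day 5, with medians of 0.00 and -0.05. In P248L cells 10 rose and 9 fell by day 2 and 22 rose and 3 fell by day 5, with medians of 0.03 and 1.504. Beside these stand 40% and 71.1% of all genes called, 34.8% as higher at day 5, with medians of -0.01 and -0.02. The day 5 medians of these other receptor genes were like those of the 6 receptor genes (1.54 and 1.78). The P248L counts of this list were 8 and 9 by day 2 and 22 and 3 by day 5 without the pair of libraries. Flt3, a growth factor receptor of early progenitors, fell from 133 ± 8.11 to 0.471 ± 0.279 CPM in wild-type and from 127 ± 16.1 to 4 ± 0.295 CPM in P248L cells by day 2 (adjusted p = 1.9e-12 and 3.1e-10). Il1r2, the decoy receptor of interleukin 1, rose in wild-type cells from 0.17 ± 0.115 to 20.6 ± 2.27 CPM by day 2 and to 75.1 ± 9.86 by day 5, and in P248L cells from 0.146 ± 0.103 to 2.19 ± 0.56 and then 476 ± 71.3 CPM. Csf1r, the receptor of M-CSF, was at 32.1 ± 3.54, 10.1 ± 1.97 and 203 ± 23 CPM in wild-type and at 5.24 ± 0.336, 9.86 ± 1.18 and 223 ± 30 CPM in P248L cells, so that it too started lower in the P248L line and ended at a like level.

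Cell type markers changed over the same days. Late neutrophil markers, 9 of 10 in the files, summed to 28.5 to 30.5 CPM in wild-type untreated, 2120 to 3260 at day 2 and 2570 to 3530 at day 5, and to 30.3 to 39.1, 65 to 79.2 and 4010 to 4960 CPM in P248L cells, with Retnlg at 0 in P248L untreated and day 2. The sum thus rose early in wild-type and late in P248L, as Csf2rb and Csf2rb2 did. Csf2ra rose at both steps in both lines. Most of the wild-type day 2 sum was Ngp (1940 ± 455 CPM). In wild-type cells the means of Ngp, Camp, Lcn2, Cd177 and Cxcr2 were highest at day 2. Those of Ltf, Mmp8, Mmp9 and Retnlg were highest at day 5, with Mmp8 at 4.89 ± 0.449, 117 ± 44.6 and 1330 ± 135 CPM. In P248L cells Lcn2 had already risen from 2.33 ± 0.681 to 33 ± 9.19 CPM by day 2. Markers of monocytes and macrophages, 9 of 10, summed to 1770 to 1980, 651 to 698 and 2710 to 2950 CPM in wild-type and 1330 to 1690, 335 to 434 and 3380 to 3980 CPM in P248L cells, with Siglec1 at 0 in wild-type day 2 and P248L untreated, and Mertk at 0 in P248L untreated and day 2. The lower sum at day 2 reflects Ccr2. This gene went from 1623 ± 102 to 169 ± 36.5 CPM in wild-type and from 1323 ± 229 to 129.96 ± 66.5 CPM in P248L cells. In wild-type cells Cd14 went from 53.3 ± 7.7 to 125 ± 11.1, Ly6c2 from 141 ± 19.5 to 300.5 ± 42 and Cd68 from 9.96 ± 0.8 to 25.3 ± 5.68 CPM. Mrc1 and Fcgr1 also rose there, while Csf1r fell from 32.1 ± 3.54 to 10.1 ± 1.97 CPM. In P248L cells Ly6c2 was at 72 ± 28.6 and then 68.4 ± 23.4 CPM, and Cd68, Csf1r, Mrc1 and Fcgr1 were higher at day 2. The 6 progenitor markers went from 1980 to 2140 through 654 to 705 to 126 to 162 CPM in wild-type and from 2150 to 2460 through 1070 to 1280 to 215 to 267 CPM in P248L cells, with none at 0. The 5 granulocyte-monocyte progenitor markers summed to 8680 to 9760, 3600 to 4260 and 28.3 to 30.7 CPM in wild-type. Their P248L sums were 6610 to 9990, 5500 to 10700 and 409 to 511 CPM. All 4 megakaryocyte markers together were at 12.7 to 20, 21.7 to 31.7 and 27.3 to 34.1 CPM in wild-type. In P248L cells they were at 10.7 to 15.9, 7.72 to 14.7 and 18 to 25 CPM, with Pf4 higher and Itga2b lower at day 5 than untreated.

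Mast cell markers, all 6 in the files, had a higher sum in wild-type than in P248L cells at day 5, most of it from Cpa3. Their sum was 498 to 661, 787 to 1100 and 2080 to 3070 CPM in wild-type and 470 to 555, 252 to 255 and 28.1 to 48.8 CPM in P248L cells. Mcpt4, Tpsab1, Tpsb2 and Mrgprb1 were at 0 in untreated cells of both lines and at wild-type day 2, Mcpt4, Tpsab1 and Mrgprb1 at P248L day 2 and Mcpt4 at P248L day 5. Basophil markers, 5 of 5, summed to 32.2 to 40.8, 61.1 to 75.7 and 93.3 to 114 CPM in wild-type and 32.7 to 61.4, 15.4 to 16.4 and 9.85 to 13.7 CPM in P248L cells, with Fcer1a at 0 in all groups but wild-type day 5 and Prss34 at 0 at wild-type day 2 and at day 5 of both lines. The members of this list went opposite ways in wild-type cells, with Cd200r3 at 16.1 ± 1.44, 56.5 ± 8.18 and 103 ± 9.95 CPM and Mcpt8 at 19.8 ± 2.93, 8.83 ± 1.96 and 1.38 ± 0.667 CPM. The part of these cell types in the receptor changes was not tested. Lymphoid and erythroid markers (4 of 5 each in the files) summed to at most 0.344 and 1.34 CPM. Of the 5 markers of hepatocytes and stroma, Alb was at 0 in all groups, but others were not. Pecam1 had group means from 69.6 ± 2.24 (P248L day 2) to 163 ± 13.2 CPM (wild-type day 2). Afp went from 0.889 ± 0.292 to 13.9 ± 0.487 CPM by day 2 in wild-type cells.

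Genes whose course over the 18 libraries was most like that of a receptor gene were found by the root mean square difference of log2 CPM, each gene centred on its own mean, among 9590 or 9591 genes that reached 10 CPM in a group. For Csf2rb the nearest of all was Csf2rb2, at 0.159, and the other way round, while the next were Slc7a8 (0.302) and C2cd2l (0.318) for Csf2rb, and B4galt5 (0.305) and Slc7a8 (0.311) for Csf2rb2. Slc7a8, an amino acid transporter gene, held 35.8 ± 2.5, 111 ± 17.2 and 184 ± 19.2 CPM in wild-type and 31 ± 5.73, 54.6 ± 9.24 and 112 ± 15.2 CPM in P248L cells. Csf2ra was nearest to Lilrb3 (0.304), an inhibitory receptor gene of myeloid cells, then Ier5 (0.322) and Hmox1 (0.343), the heme oxygenase gene. Lilrb3 held 18.6 ± 1.51, 132 ± 3.32 and 358 ± 22.2 CPM in wild-type and 13.8 ± 2.49, 36.6 ± 4.62 and 296 ± 21.2 CPM in P248L cells.

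For Il3ra the nearest was another cytokine receptor gene, Crlf2 of the TSLP receptor (0.451), followed by Nat6 (0.53) and Itm2c (0.567). Crlf2 held 24.5 ± 3.84, 14.1 ± 1.71 and 49.9 ± 7.21 CPM in wild-type and 25.1 ± 9.49, 9.37 ± 5.07 and 18.5 ± 3.1 CPM in P248L cells, low at day 2 and lower in P248L at day 5. Csf3r was nearest to 5430435G22Rik (0.344), Notch1 (0.411) and 5830416P10Rik (0.448), and Il5ra to Trim66 (0.49), Dscc1 (0.567) and P2ry10 (0.603). Among the 6 receptor genes themselves, the beta chain pair apart, differences ran from 1.04 between Csf2ra and Csf2rb to 3.32 between Csf2ra and Il5ra. For scale, the spread of a gene's own log2 values over the 18 libraries was 1.07 for Csf2rb and 1.95 for Csf2ra.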

How the data were processed

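Total RNA of about 1e6 FDH cells per condition, at passages 10 to 12, was sequenced by Illumina protocols, per the labels. Per the submitters' processing notes, the authors aligned reads to mm10 with STAR. Of tool versions and annotation, nothing is given in the sources used here. Deposited values are raw read counts per gene and strand, 1 file per library. Of the columns by strand, the one with nearly all reads was taken (1.17 to 2.54% lay on the opposite strand). Reads in no single gene, 27.9 to 38.1% of a library, stayed out of library sizes.

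Low counts were removed by filterByExpr (minimum count 10), and the rest was scaled by TMM and fitted with 1 mean per group by edgeR 4.0.16 (R 4.3.3), with 11 contrasts, 15 pairwise contrasts for the order of levels, and Benjamini-Hochberg adjustment over 11942 genes. Standard errors are |log2 fold change| divided by the root of F, and 95% intervals use 12 residual degrees of freedom. The common biological coefficient of variation was 0.17. The test was checked on simulated counts. Members and lists were chosen with earlier results of these data known.

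All 6 receptor genes are named, with the 2 list members of smallest adjusted p in a contrast, any ligand and the 3 genes of most alike pattern (prior count 2); for Csf1r, Jak2, Cish, Flt3, Il1r2, Cebpe and Gata2 values beyond that contrast are given too, and Socs2 completes its list of 4. A gene that this rule names is not reported here. Lengths, transcripts and gene coordinates are from GENCODE M21 on GRCm38, promoters from RefSeq on GRCm38.p6. Replicates of every group differed beyond sampling noise. Same-numbered libraries deviated together (correlations 0.46, 0.17 and 0.35) only for P248L day 2 against untreated, a pairing that comes from the data and not from the labels. Alternatives were DESeq2 1.42.0, limma-voom (limma 3.58.1), other scaling factors, filters and thresholds, both strands, the groups compared alone, the replicate block, the beta chain genes summed, and libraries left out. A block in P248L untreated and day 2 alone, and the lists without the pair of libraries that stood apart, were added after seeing the data. Plots: matplotlib 3.10.9, Python 3.11.15.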

Additional observations from a re-analysis of the deposited data

Results flagged for a closer look

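The responses of the lines differed by edgeR's test of the difference itself, P248L minus wild-type on the log2 scale, for 7 gene and day combinations of the receptor genes. At day 2 the difference was -1.30 for Csf2ra (adjusted p = 0.0014), -1.45 for Csf2rb (adjusted p = 0.00022), -1.61 for Csf2rb2 (adjusted p = 2.1e-05) and 1.23 for Csf3r (adjusted p = 0.014). At day 5 it was -1.03 for Csf2rb2 (adjusted p = 0.00054), 1.80 for Csf3r (adjusted p = 0.00019) and -1.32 for Il3ra (adjusted p = 0.0489), the last at the threshold.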

How the results depend on the processing

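Untreated P248L against wild-type cells gave 1 called receptor gene, and 2 with DESeq2, with no scaling beyond library size or with the replicate block, 3 without P248L untreated replicate 1 and day 2 replicate 3, and 1 to 3 with each library left out. For P248L day 2 against untreated the 4 calls became 2 at an adjusted p under 0.01 or without that pair of libraries, and 3 to 4 with each library left out. With each library left out the other counts ranged from 5 to 5 (wild-type day 2 and day 5 against untreated), 6 to 6 (wild-type day 5 against day 2, P248L day 5 against untreated), 5 to 6 (P248L day 5 against day 2), 3 to 4 (P248L against wild-type, day 2), 3 to 3 (day 5), 4 to 4 (difference of responses, day 2) and 2 to 3 (day 5, 2 to 4 under the other alternatives). With the longest transcript as length, levels moved to 4.06 (Il3ra, wild-type day 5), 77.9 (Csf2ra, P248L day 5) and 89.3 RPKM (Csf2rb, wild-type day 5).

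The replicate block over all 18 libraries brought Csf2ra between untreated lines past the threshold (adjusted p = 0.0427) and Csf2rb in the day 5 difference of responses (-0.51, adjusted p = 0.0477), and lost Il3ra there (-1.24, adjusted p = 0.0514). It changed no other call of a receptor gene. Of 2040 values of single genes under alternatives, 1957 kept direction and side of the threshold, 57 lost a call, 17 gained 1 and 9 changed sign. None of those 9 was called. They were Il5ra in the day 5 difference of responses (0.034 by limma-voom, 1.07 without wild-type day 5 replicate 3, lowest -0.77) and between lines at day 5 (0.94 without that library, lowest -0.90) and untreated (0.086 without wild-type untreated replicate 1), Il3ra at wild-type day 5 against untreated (-0.32 with no scaling) and in the day 2 difference (0.23 without the pair of libraries, lowest -0.96 with a single library left out), and between lines at day 5 Csf2ra (-0.045 without wild-type replicate 1, -0.027 without P248L replicate 1, highest 0.12) and Csf3r (-0.052 without P248L replicate 1, highest 0.34). The cause was not tested.

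With only the groups compared, 1657 in place of 4775 genes were called for P248L day 2 against untreated, 1205 in place of 2587 between untreated lines and 727 in place of 1140 in the day 2 difference. At an adjusted p under 0.01 the counts were 1343 between untreated lines, 589 in the day 2 difference and 1914 in place of 3207 in the day 5 difference. Leaving out a library gave 1563 and 1524 (wild-type untreated replicates 1 and 3), 1686 and 4535 (P248L untreated replicates 1 and 3) between untreated lines, and 1872 and 1915 (P248L untreated replicate 3, day 2 replicate 1) in the day 2 difference. With no scaling the median gene moved by up to -0.49 (wild-type day 5 against untreated), where 34.4% in place of 48.9% of calls were higher. That share went from 50.4 to 36% for wild-type day 2, from 51 to 40.5% for wild-type day 5 against day 2, from 46.3 to 34.4% for P248L day 2, from 47.7 to 35.8% between untreated lines and from 54.6 to 72.7% in the day 5 difference. Il5ra was not tested at a minimum count of 50, nor between lines at day 5 with only those groups. Depth limits Il5ra most, with 1 to 6 reads per library at day 5.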
